A study of Mus musculus with 8 samples.

Results

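The genes described here are 10 targets and feedback regulators of fibroblast growth factor (FGF) signalling through the kinase ERK, namely Etv1, Etv4, Etv5, Spry1, Spry2, Spry4, Dusp6, Dusp9, Spred1 and Spred2. They were followed in optic fissure tissue from mouse embryos, which is the gap along the underside of the forming eye that must close for the eye to become round. They were found by symbol among the 45101 probe sets of the array, which name 18194 genes through probe sets of a single symbol, and 29 probe sets carried 1 of the 10 symbols alone. Of these, 19 had enough signal to be tested, and they covered 8 of the 10 genes. All groups were wild-type C57BL/6 embryos with no treatment given, at embryonic day 10.5 (E10.5, 3 arrays), 11.5 (E11.5, 3 arrays) and 12.5 (E12.5, 2 arrays). Laser capture microdissection isolated the fissure on cryosections, and each array, named by stage and a letter, held amplified RNA pooled from 3 embryos. The labels disagree on whether the pooled embryos shared a litter, so p-values measure the spread between these arrays only.

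FGF ligands bind receptor tyrosine kinases, which switch on RAS and then the RAF, MEK and ERK kinases. ERK activity raises transcription of the PEA3 factors Etv1, Etv4 and Etv5, of the phosphatase genes Dusp6 and Dusp9, whose products remove the activating phosphates from ERK, and of the Sprouty (Spry) and Spred genes, whose products restrain RAS and RAF. Their transcripts are widely used to read out the pathway, and in the eye FGF signalling is known for its part in neural retina identity, optic fissure closure and the start of retinal neurogenesis.

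Values are log2 signals as deposited, and changes are differences of stage means on that scale, fitted with limma over all 8 arrays and called at an adjusted p below 0.05. The 8 array medians lay between 4.37 and 4.48. The brightest 1% of probe sets began at 11.19 to 12.38 on the E11.5 arrays, below the 12.47 to 12.93 of the others. The difference between the 3 prime and 5 prime probe sets for the Gapdh control, which grows as amplified RNA gets shorter, was 4.19 to 4.71 on E10.5 arrays, 3.35 to 4.63 on E11.5 arrays and 4.78 to 5.17 on E12.5 arrays. Among markers of the labelled tissue, the ventral optic cup gene Vax2 had stage means of 8.86, 8.95 and 9.84, Vax1, its relative in optic stalk and ventral retina, read 8.88, 7.77 and 7.88, and the stage means of Aldh1a3, a retinoic acid synthesis enzyme, lay between 11.58 and 11.72. Ntn1, which encodes the secreted fissure protein netrin 1, was the gene of the 5 tested called on its brightest probe set. It fell from 8.37 to 6.81 to 4.33, by 4.04 from first to last stage (SE 0.30, adjusted p = 3.57e-05). Vax1 changed by -1 between those stages (adjusted p = 0.0501), and 1 of its 2 tested probe sets was called. Tbx2 had stage means of 6.65, 5.99 and 6.06. These bulk values cannot tell a smaller number of expressing cells from less RNA per cell.

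Dusp9 fell and Etv5 rose over these days, and no other of the genes passed the test as deposited. Dusp9 went down through the whole series and was 7.59-fold lower at E12.5 than at E10.5. Etv5 had means of 3.76 at E10.5 and 3.64 at E11.5, both under the mean signal of 3.94 asked of a tested probe set, and of 5.31 at E12.5. The stage means of Dusp6, Spry1, Spry2, Spred1 and Spred2 on their brightest probe sets were lowest at E11.5 and highest at E12.5, and Etv4 differed least.

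**Figure D1:**
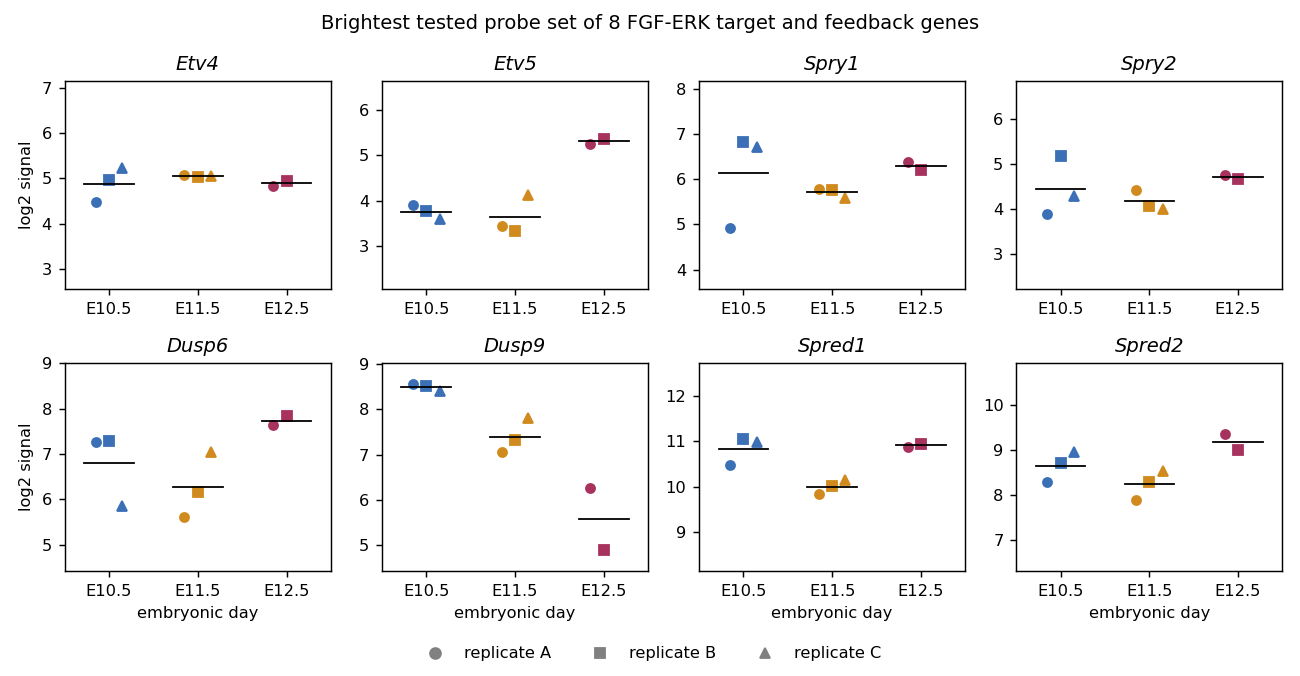
Log2 signal on each array (points, marker shape for the replicate letter) and stage mean (bars) of the brightest tested probe set of 8 genes, against embryonic day. Each panel spans the same height of 4.6 log2 units around its own centre. Dusp9 steps down from 8.50 to 7.40 to 5.57, and both E12.5 arrays of Etv5 lie above all earlier arrays.

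Counted over probe sets, 0 of the 19 passed between E10.5 and E11.5, where limma called 0.126% of all 27022 probe sets. At an unadjusted p below 0.05 there were 4, where 19.4% of all were. Over the last day there were 10 at that level, where 16.7% of all were, and over both days 6, where 22.2% were. Dusp9, Spred1 and Spred2 gave 3, 6 and 4 of the 19, so counts of probe sets here and below take in the same gene repeatedly. With 1 probe set a gene, 2, 5 and 2 of 8 genes were below 0.05 in these comparisons. Of all genes, 22.2%, 18.1% and 24.2% were. Between E11.5 and E12.5, 2 of the 19 were called, 1 higher and 1 lower, where 1.82% of all were called, 1.62% higher and 0.2% lower. Between E10.5 and E12.5, 4 of the 19 were called, 1 higher and 3 lower, where 4.64% of all were called, 3.08% higher and 1.56% lower. The 3 lower ones were all of Dusp9. The F test for any stage difference called 3 of the 19 against 2.92% of all, which were 1 probe set of Etv5 and 2 of Dusp9. Setting E11.5 against the average of E10.5 and E12.5 called 0 of the 19 in limma (6 at an unadjusted p below 0.05, where 16.6% of all were), where 0.241% of all were called.

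Like the array as a whole, most of these probe sets read lower at E11.5, without passing the test. From E10.5 to E11.5 the change was negative for 16 of the 19 probe sets and 70.9% of all, with a median of -0.33 against -0.18 over all probe sets, and 4 had arrays that did not overlap and were lower, where 19.3% of all did. None was higher without overlap, where 3.57% of all were. From E11.5 to E12.5 it was positive for 14 of the 19 and 60% of all, with a median of 0.45 against 0.10, and 10 had arrays that did not overlap and were higher, where 29.6% of all did, while 5 were lower, where 14.1% of all were. From E10.5 to E12.5, 5 were higher and 3 lower without overlap, where 19.3% and 25.7% of all were. After quantile normalization these medians were -0.23 and 0.32 against -0.02 and -0.04. The E11.5 arrays also had the lower top signals given above, and the part of this in the dip was not tested. Among these arrays E11.5 A was the lowest for 12 of the 19 probe sets (60.9% of all probe sets). With a mean log2 above 6, it was the lowest for 8 of 9 (79.7% of all such probe sets).

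**Figure D2:**
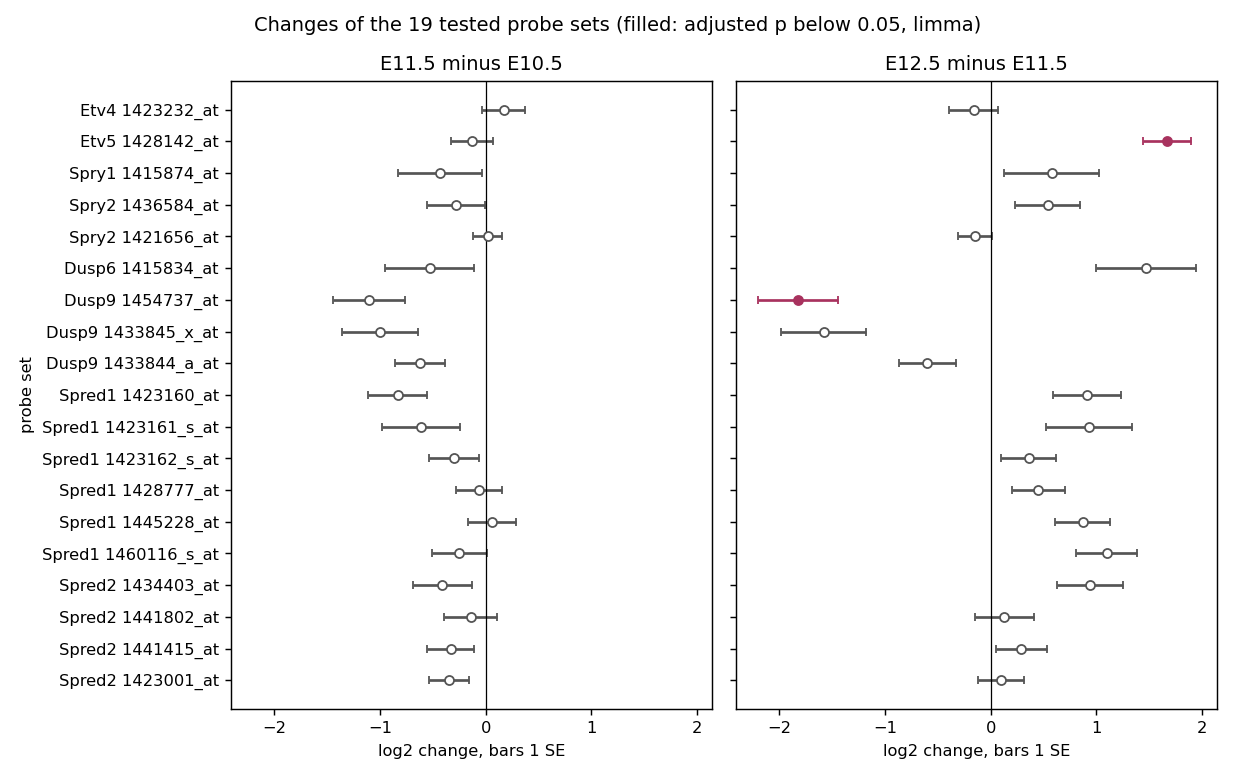
Log2 change (x axis, bars 1 SE from limma) of each of the 19 tested probe sets from E10.5 to E11.5 and from E11.5 to E12.5. Filled points passed the test, none in the first interval, and Etv5 (1.67) and 1 probe set of Dusp9 (-1.82) in the second.

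Among the PEA3 transcription factors, Etv5 rose at E12.5 and Etv4 did not pass the test in any comparison. Etv5 was measured by 1428142_at, which read 3.91, 3.78 and 3.60 on the E10.5 arrays A to C, 3.44, 3.33 and 4.13 on the E11.5 arrays, and 5.25 and 5.36 on the E12.5 arrays. Both E12.5 arrays were above every earlier array, while E10.5 and E11.5 overlapped and E11.5 C was the highest of the 6 earlier ones. The change from E11.5 to E12.5 was 1.67 (SE 0.23, adjusted p = 0.00313) and that from E10.5 to E12.5 was 1.54 (SE 0.23, adjusted p = 0.00348). The probe set entered the test through its E12.5 arrays, since its mean over all arrays was 4.10, so these changes start from values near the floor. From E10.5 to E11.5 it was -0.13 (95% interval -0.58 to 0.32, adjusted p = 0.76).

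The Etv5 result rests on 1 of its 3 probe sets and on a dim signal. The others, 1450082_s_at and 1420998_at, lay between 3.05 and 3.53 on all arrays, under the mean of 3.94 needed for testing. The mean signal of 1428142_at stood at the 44.0th percentile of all probe sets, so the filter of the lowest 60% would have left it out. A pseudocount of 64, which damps dim probe sets, brought its change from E11.5 to E12.5 down to 0.43 and kept the call (adjusted p = 0.000923). Its SE fell as well, from 0.23 to 0.05, so the kept call does not show how far this dim signal can be trusted. Adding the Gapdh 3 prime minus 5 prime signal as a covariate ended the call, with a change of 1.17 (adjusted p = 0.173), while the change from E10.5 to E12.5 stayed called. That signal was larger on both E12.5 arrays than on every earlier array, so this fit cannot fully separate it from stage. The summed signal of the neurogenesis markers rose beside Etv5, from a log2 of 7.02 to 7.39 on the E11.5 arrays to 12.5 to 13.7 at E12.5, with 8 of the 10 tested markers called higher. That of the neural retina progenitor markers was 13.68 to 14.82 at E10.5, 12.59 to 13.35 at E11.5 and 14.89 to 15.02 at E12.5. Of these, 5 of 11 were called higher from E11.5 to E12.5, among them Fgf15, which is also counted with the FGF ligands below. Their E10.5 signal was thus above that at E11.5, where 70.9% of all probe sets also read lower. The highest E10.5 sum was on array C, where the marker Aldh1a1 read 13.81 against 9.09 on array A. The neurogenesis markers summed to 7.18 to 7.42 at E10.5, but most were near the floor at both stages, such as Atoh7 with means of 3.81 and 3.68. The marker sets therefore cannot be compared for a dip at E11.5. The part of these cell types in the rise of Etv5 was not tested.

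The promoters of Etv5 and Dusp6 are shown because they are the genes with the largest increases from E11.5 to E12.5 in this family, and because the repressor Capicua, which ERK inactivates, is known to act on PEA3 genes through sites with the core TGAATG. The sequences are the 250 bases before annotated start sites, from RefSeq on GRCm38.p6, and capitals mark TGAATG on either strand. Etv5 has a pair of annotated start sites on the minus strand, at chr16:22438369-22438618 (internal start) and chr16:22439571-22439820 (upstream start), and Dusp6 has its window on the plus strand at chr10:99262981-99263230.
Etv5 internal start: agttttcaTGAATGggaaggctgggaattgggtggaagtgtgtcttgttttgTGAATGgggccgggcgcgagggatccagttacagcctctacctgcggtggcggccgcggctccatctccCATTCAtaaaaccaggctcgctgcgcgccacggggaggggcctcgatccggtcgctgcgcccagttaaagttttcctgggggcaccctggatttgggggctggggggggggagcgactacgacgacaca
Etv5 upstream start: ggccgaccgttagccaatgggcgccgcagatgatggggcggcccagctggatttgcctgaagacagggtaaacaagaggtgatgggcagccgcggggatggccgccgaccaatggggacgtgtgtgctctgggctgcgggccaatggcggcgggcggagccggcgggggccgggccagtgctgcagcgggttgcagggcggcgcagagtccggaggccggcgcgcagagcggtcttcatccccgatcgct
Dusp6: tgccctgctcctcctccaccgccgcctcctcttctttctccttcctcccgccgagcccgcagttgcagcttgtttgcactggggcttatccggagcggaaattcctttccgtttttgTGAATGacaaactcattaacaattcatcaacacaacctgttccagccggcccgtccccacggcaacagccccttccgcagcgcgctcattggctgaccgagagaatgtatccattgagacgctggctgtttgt
The window before the internal start of Etv5 held 3 such cores, whose first bases lay 242, 198 and 129 bases before the start. Of the 32851 windows of this length, 10.9% held the core at least once and 0.131% held it 3 or more times. All 3 belonged to the 8-base forms TGAATGAA, TGAATGAG, TGAATGGA or TGAATGGG, which 3.86% of windows held at least once. Dusp6 held 1 core, 133 bases before its start, and the upstream start of Etv5 held 0. The ETS factor motif CCGGAA, in 12% of all windows, was not in any of the 9 windows of the 7 members listed, Etv1, Etv5, Spry1, Spry2, Dusp6, Spred1 and Spred2. The motifs were chosen after these windows had been read, both strands were searched, and a match is a description of the letters and not of binding.

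Etv4 was measured by 1423232_at, which read 4.48, 4.96 and 5.22 at E10.5, 5.07, 5.03 and 5.06 at E11.5, and 4.84 and 4.94 at E12.5. The E10.5 arrays spanned the values of all later ones. The change from E11.5 to E12.5 was -0.16 (95% interval -0.66 to 0.34), whose upper bound lies below the 1.67 of Etv5, although the difference between the genes was not tested. Its other probe set, 1443381_at, lay between 3.66 and 4.16 and was not tested. Etv1 has no value here, since each of its 3 probe sets is annotated to a second gene as well, and none was named.

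The phosphatase Dusp9, which acts on ERK in the cytoplasm, fell at all 3 of its probe sets between E10.5 and E12.5. On 1454737_at it read 8.57, 8.51 and 8.40 on the E10.5 arrays A to C, 7.05, 7.32 and 7.82 at E11.5, and 6.26 and 4.89 at E12.5. The stages did not overlap at either step, a pattern of lower at both steps seen in 2.33% of all probe sets. The change from E10.5 to E12.5 was -2.92 (SE 0.38, adjusted p = 0.00133), and all 21 alternatives kept that call, with changes between -3.61 and -1.89 and adjusted p between 0.000285 and 0.0236. From E10.5 to E11.5 it was -1.10 (95% interval -1.84 to -0.37, adjusted p = 0.161) and from E11.5 to E12.5 -1.82 (SE 0.38, adjusted p = 0.0346).

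The steps of Dusp9 were less secure than its overall fall. The change from E11.5 to E12.5 lost its call in 10 of the 21 alternatives, with adjusted p from 6.94e-05 to 0.659 over all of them. It was -1.14 without E12.5 B (adjusted p = 0.659) and -2.51 without E12.5 A. The call also ended without E10.5 B (-1.82), E11.5 A (-2.00), E11.5 B (-1.86) or E11.5 C (-1.61). E12.5 B, the lower array for Dusp9, was also the one with more neurogenesis marker signal, 13.7 against 12.5 on E12.5 A as the log2 of the sum. Markers of the mesenchyme around the eye also moved, from a log2 of summed signal of 8.3 to 8.81 at E10.5 to 9.83 to 10.77 at E11.5 and 9.84 to 10.58 at E12.5, with 2 of 9 tested genes called higher between the first and last stage. Of 10 pigment epithelium markers, 5 were called higher and 1 lower in that comparison, with a median change of 1.6, and their summed signal was 11.77 to 12.59 at first and 12.07 to 12.68 at last. Ntn1 fell beside Dusp9, as given above. The part of these cells in the fall was not tested.

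The other Dusp9 probe sets went the same way by smaller amounts. On 1433845_x_at the values were 8.28, 8.21 and 7.87 at E10.5, 6.70, 7.13 and 7.53 at E11.5, and 6.28 and 4.80 at E12.5. Its suffix marks probes that can also match other transcripts, and its change from E10.5 to E12.5 was -2.58 (SE 0.40, adjusted p = 0.00435). On 1433844_a_at the values were 7.10, 6.90 and 6.87 at E10.5, 6.08, 6.23 and 6.69 at E11.5, and 5.97 and 5.50 at E12.5, a change of -1.22 (SE 0.27, adjusted p = 0.0263) from first to last. All 3 probe sets had no overlap between the stages at either step, and they share the accession they were designed from, so they are not independent. Without E12.5 B, 1433845_x_at (-1.84, adjusted p = 0.0757) and 1433844_a_at (-0.99, adjusted p = 0.402) were no longer called, and 1433844_a_at was also lost without E10.5 A, E11.5 B or E12.5 A.

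**Figure D3:**
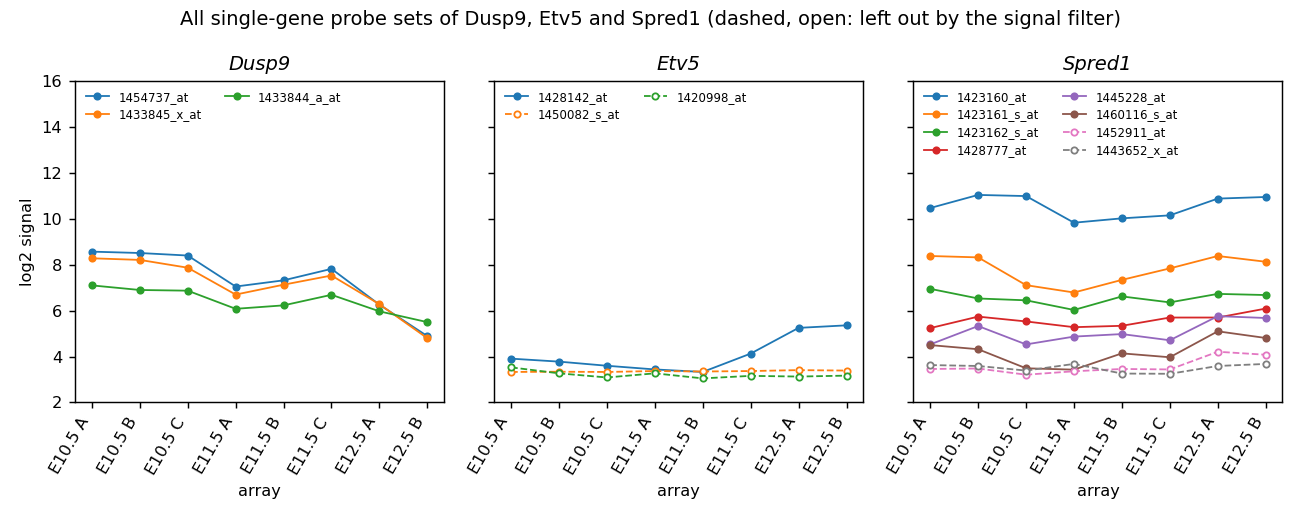
Log2 signal on each array (x axis) of every single-gene probe set of Dusp9, Etv5 and Spred1, where lines only join the values of 1 probe set and dashed lines with open points were not tested. The 3 probe sets of Dusp9 decline together, 1 of the 3 of Etv5 is clearly separated at E12.5 while the other 2 stay between 3.05 and 3.53, and the brightest of Spred1 reads lowest on the E11.5 arrays.

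Dusp6, the ERK phosphatase most often used as a readout of FGF signalling, had its highest values at E12.5 without passing the test. Its single probe set, 1415834_at, read 7.27, 7.29 and 5.84 at E10.5, 5.6, 6.16 and 7.04 at E11.5, and 7.64 and 7.83 at E12.5. Both E12.5 arrays were above every other array, and the earlier stages overlapped with wide spread, since E10.5 C and E11.5 A were the low ones. The change from E11.5 to E12.5 was 1.47 (SE 0.47, 95% interval 0.43 to 2.5, adjusted p = 0.157) and that from E10.5 to E12.5 was 0.93 (95% interval -0.10 to 1.97, adjusted p = 0.272). Over its alternatives the former ranged from 0.21 to 1.86, the lowest with the Gapdh covariate, which cannot be fully separated from stage.

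The Sprouty genes, which encode inhibitors induced by the signal they restrain, showed no called change. Spry1, on its single probe set, read 4.92, 6.81 and 6.70 at E10.5, 5.79, 5.75 and 5.59 at E11.5, and 6.37 and 6.21 at E12.5. E10.5 A lay below all other arrays and E10.5 B and C above all arrays of the later stages. Both E12.5 arrays were above all E11.5 arrays. The change from E11.5 to E12.5 was 0.58 (95% interval -0.41 to 1.57, adjusted p = 0.559).

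Spry2 on 1436584_at read 3.89, 5.17 and 4.29 at E10.5, 4.42, 4.07 and 4.01 at E11.5, and 4.76 and 4.66 at E12.5, with a change of 0.54 (95% interval -0.13 to 1.21, adjusted p = 0.397) from E11.5 to E12.5. Its other tested probe set stayed between 4.01 and 4.34. The 4 probe sets of Spry4 lay between 2.84 and 4.12 on all arrays, under the filter as means, so that no change of Spry4 could be assessed.

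The Spred genes, membrane-bound inhibitors of RAF activation, showed no called change as deposited. Spred1 on 1423160_at read 10.47, 11.04 and 10.99 at E10.5, 9.83, 10.02 and 10.15 at E11.5, and 10.88 and 10.95 at E12.5. All E11.5 arrays were below all others, with changes of -0.83 (95% interval -1.45 to -0.21, adjusted p = 0.174) and 0.91 (95% interval 0.22 to 1.60, adjusted p = 0.184), neither called. A pattern without overlap, lower and then higher, was seen in 7.36% of all probe sets. After quantile normalization the steps were -0.09 and 0.32, so the size of this dip depended on the scaling.

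The changes from E11.5 to E12.5 of all 6 tested Spred1 probe sets were positive, and none passed the test as deposited. The largest were 1.10 on 1460116_s_at (adjusted p = 0.0947) and 0.93 on 1423161_s_at (adjusted p = 0.283). From E10.5 to E12.5, 1445228_at changed by 0.93 (adjusted p = 0.0638). Both 1445228_at and 1460116_s_at were called over the last day when only those 2 stages were compared. Without E10.5 C, 1460116_s_at was called there, and without E10.5 B, 1445228_at was called over both days. The probe set 1452911_at, which was too dim for testing, read 3.21 to 3.48 on the 6 earlier arrays and 4.21 and 4.08 at E12.5, and it was called only when no filter was used. Spred2 on 1434403_at read 8.28, 8.72 and 8.95 at E10.5, 7.90, 8.28 and 8.54 at E11.5, and 9.35 and 8.99 at E12.5. Both E12.5 arrays were the highest, with a change from E11.5 of 0.94 (95% interval 0.25 to 1.62, adjusted p = 0.17), while its 3 other tested probe sets changed by 0.10 to 0.29.

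Among the 8 genes, the brightest probe sets of Spred1 and Spred2 differed least over the arrays. The root mean square difference of their log2 signals over the 8 arrays, each centred on its own mean, was 0.26, against 1.82 for Etv5 and Dusp9, which differed most. The measure is not scaled to the size of change, so genes that change little score as close. Etv4 and Spred2, which moved in opposite directions at both steps, scored 0.48, as did Etv5 and Dusp6. By the same measure over 13042 other genes, the courses closest to Etv5 were those of Mbnl3, an RNA splicing factor (0.17), the collagen Col23a1 (0.17) and the guanylate cyclase subunit Gucy1a2 (0.18). Those closest to Dusp9 were Fst, the secreted activin antagonist follistatin (0.31), the nuclear receptor Nr2f2 (0.34) and the zinc finger gene Zfp503 (0.41), whose stage means went from 10.92 to 10.13 to 8.93. Those closest to Spred1 were the small GTPase Rab11a (0.13), Peg12 (0.14) and Cnot7, a subunit of the deadenylase complex (0.14).

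The rest of the pathway was described from lists of ligands, receptors, cascade members, other feedback inhibitors and other ERK-responsive genes, with 1 probe set a gene. Of all 13050 genes, 2.02% were called between E11.5 and E12.5 and 5.26% between E10.5 and E12.5. From E10.5 to E11.5 limma called no gene of these 5 lists, where 0.176% of all genes were called, and 3 ligands, 1 receptor, 1 cascade gene, 4 inhibitors and 7 responsive genes had an unadjusted p below 0.05, as 22.2% of all genes did. Among 13 tested ligands of 22, Fgf15, a ligand of retinal progenitors (3.79, SE 0.38, adjusted p = 0.000416), and Fgf9, a ligand of the early neural retina, rose from E11.5 to E12.5 and 11 did not pass (median -0.04 against 0.11 over all genes). Fgf15, also among the neural retina progenitor markers above, read 6.86, 7.25 and 7.7 at E11.5 and 10.46 and 11.65 at E12.5. Fgf9 read 7.76, 8.08 and 7.59 at E11.5 and 9.74 and 10.12 at E12.5, with 1 of its 2 tested probe sets called. Fgf18 fell by 1.41 from E10.5 to E12.5 (SE 0.26, adjusted p = 0.0115) to a level near the bottom of the range, from 4.42, 5.13 and 5.22 to 3.36 and 3.67.

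None of the 5 receptor genes was called by limma in any pairwise comparison, with 1, 1 and 0 at an unadjusted p below 0.05 from E10.5 to E11.5, over the last day and over both days, where 22.2%, 18.1% and 24.2% of all genes were. Fgfr2 read 8.59, 8.07 and 8.17 at E10.5, 8.37, 8.85 and 9.26 at E11.5, and 8.30 and 7.70 at E12.5, with a change of -0.83 (SE 0.34, adjusted p = 0.246) over the last interval. Fgfrl1, a receptor-like protein without a kinase domain, had stage means of 9.27, 8.59 and 8.59.

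Of the cascade, 17 of 23 genes were tested and none was called by limma, with 1, 6 and 5 at an unadjusted p below 0.05 in the same order. Its medians were 0.45 from E11.5 to E12.5 and 0.34 from E10.5 to E12.5 against 0.11 and -0.10 over all genes. The RAS exchange factor Sos2 read 7.06, 7.61 and 7.95 at E11.5 and 8.76 and 8.69 at E12.5 (change 1.19, SE 0.34, adjusted p = 0.111). The kinase Braf read 8.15, 8.21 and 8.55 and then 9.32 and 9.27 (change 0.99, SE 0.27, adjusted p = 0.0982). In both, the E12.5 arrays lay above all others, but these genes were picked for the smallest F-test p of the list. Of all probe sets, 29.6% were higher without overlap from E11.5 to E12.5 and 19.3% from E10.5 to E12.5.

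Among 18 tested feedback inhibitors other than the members, of 20, Dusp1 was the single gene called between E11.5 and E12.5. Dusp1, a nuclear phosphatase of several MAP kinases, read 5.15, 5.66 and 5.8 at E11.5 and 7.17 and 7.70 at E12.5, a rise of 1.90 (SE 0.27, adjusted p = 0.00477). Between E10.5 and E12.5 Dusp1 rose by 1.47 (adjusted p = 0.0127) while Dusp5, a nuclear ERK phosphatase, fell by 1.14 (SE 0.25, adjusted p = 0.026) and Lrig3, a receptor inhibitor, fell by 1.97 (SE 0.44, adjusted p = 0.0277). Dusp5 went from 7.01, 6.60 and 7.10 to 5.79 and 5.75, without overlap, and Lrig3 from 7, 6.51 and 8.33 to 5.6 and 5.02. Lrig3 was called on 1 of its 3 tested probe sets. The remaining 15 genes did not pass in that comparison.

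Among 20 tested ERK-responsive genes of 25, Phlda1 and Ccnd1 rose from E11.5 to E12.5 and 18 did not pass. Phlda1, a pleckstrin homology domain protein, read 6.49, 6.76 and 6.85 at E11.5 and 8.64 and 9.09 at E12.5 (change 2.17, SE 0.31, adjusted p = 0.00416). The cyclin Ccnd1, which drives entry into the cell cycle, went from 9.67, 9.81 and 10.45 to 11.83 and 11.89 (change 1.89, SE 0.34, adjusted p = 0.0161) and was called on all 3 of its probe sets. Between E10.5 and E12.5 Phlda1 and Jun, a subunit of AP-1, rose by 1.48 and 1.26 (adjusted p = 0.0215 and 0.0366). The immediate early gene Egr3 fell by 0.74 (adjusted p = 0.0487), a call that ended in 15 of its 19 alternatives. Calls also ended in 9 of 20 alternatives for Jun, 8 of 20 for Fgf9 and 4 of 20 for Ccnd1. The same held in 6 of 20 each for Dusp5, Lrig3 and the change of Phlda1 over both days. It held in 2 of 20 each for Phlda1 and Dusp1 over the last day. For Dusp1 over both days it was 1 of 20, for Fgf18 2 of 19, and for Fgf15 none. The list's median was 0.16 between E11.5 and E12.5, against 0.11 of all genes, and 0.19 from E10.5 to E12.5 against -0.10.

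**Figure D4:**
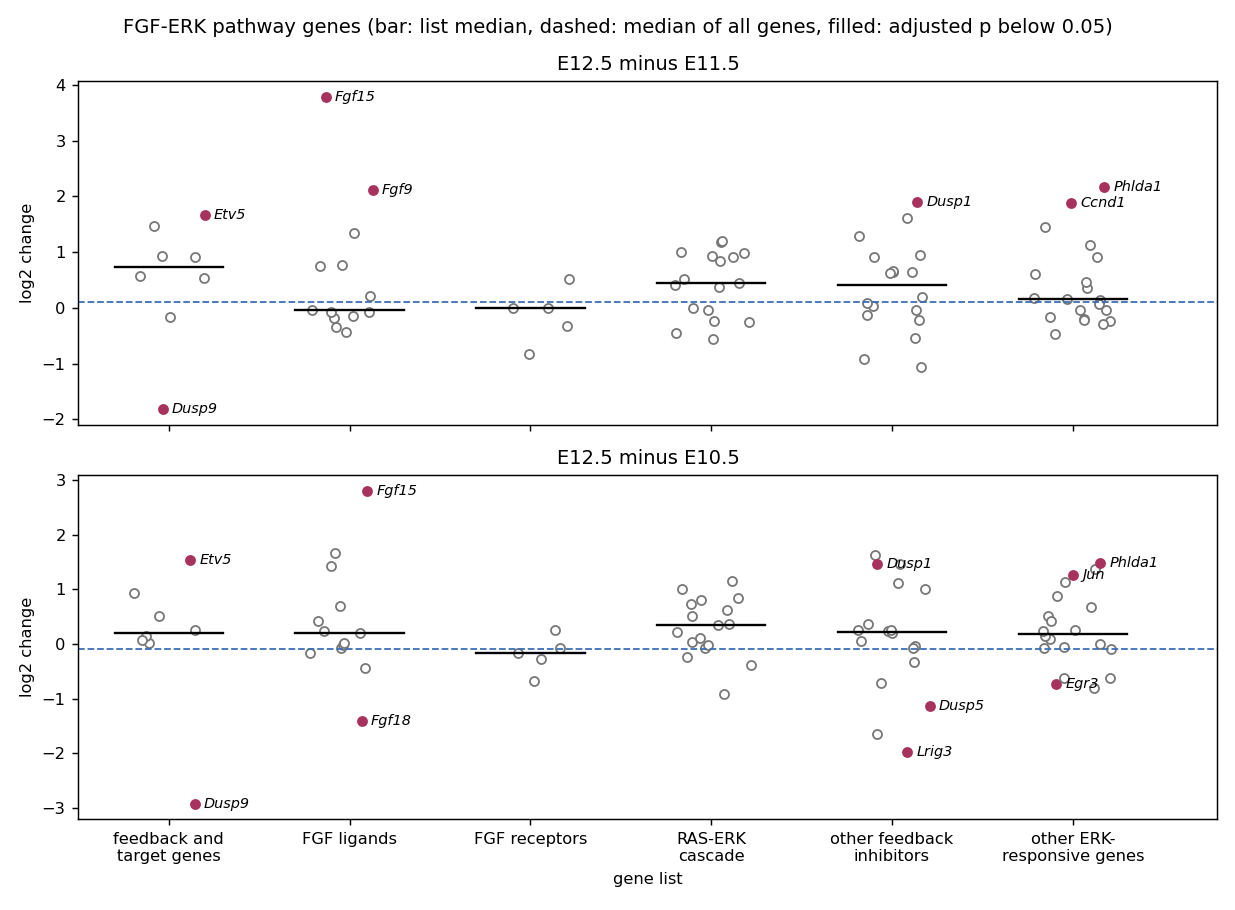
Log2 change per gene (y axis) from E11.5 to E12.5 and from E10.5 to E12.5 in 6 lists of the pathway, with the list median as a bar and the median of all genes as a dashed line. Filled, named points passed the test, such as Fgf15 at 3.79 and Dusp9 at -1.82 in the upper panel.

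**Figure D5:**
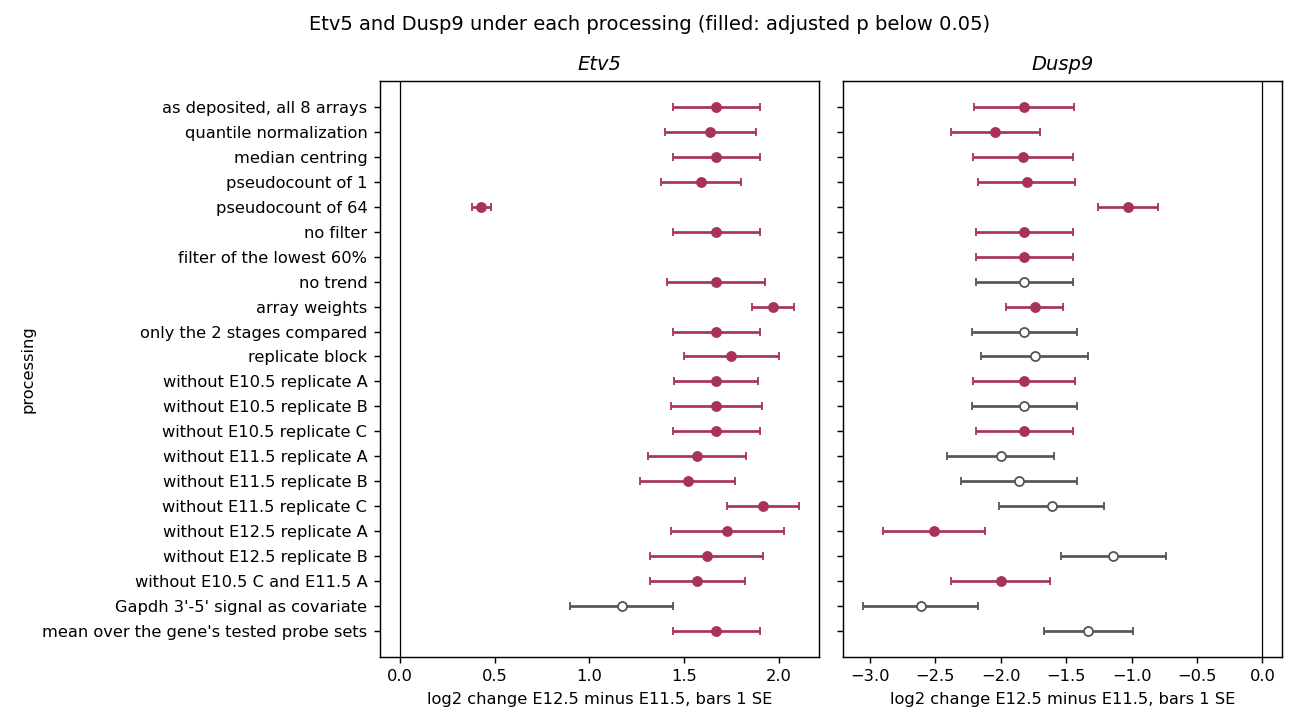
Log2 change from E11.5 to E12.5 (x axis, bars 1 SE) of Etv5 and of Dusp9 on 1454737_at under each way of processing, where filled points passed the test. Etv5 lost its call only with the Gapdh covariate and has no value with the filter of the lowest 60%, and Dusp9 lost its call in 10 of 21 alternatives with the same sign in all.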

How the data were processed

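Fissure RNA of 8 arrays was linearly amplified by T7 polymerase over repeated rounds before biotin labelling, per the labels' protocols. The authors deposited log2 signals of 45101 probe sets. The submitters' processing notes name GCOS 1.4. The sources used here do not give how signals were summarized or scaled.

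Genes were named from the platform's annotation of 2016, with symbols updated through RefSeq gene identifiers of GRCm38.p6 (34754 of 34958 single-symbol probe sets matched; 932 had several symbols and 9211 none). The 64 control probe sets and the lowest 40% by mean signal (below 3.94) were left out, which kept 27022 probe sets and 13050 genes. The deposited log2 values were fitted without further normalization with limma 3.58.1 in R 4.3.3, in 1 model of stage over 8 arrays (5 residual degrees of freedom), with empirical Bayes moderation and a trend on mean signal. P-values are two-sided and adjusted by Benjamini-Hochberg over all 27022 probe sets. Intervals are unadjusted 95% intervals of the same fit. A gene in a list is its tested probe set with the highest mean signal. The fit was tested on simulated data.

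The members and lists were chosen with earlier results of these data known. Named are all members, each called gene of a pathway list or, where no gene was called, the 2 with the smallest F-test p, and for 3 members the 3 genes of the closest course. Alternatives were quantile normalization, median centring, pseudocounts of 1 and 64, no filter and one of the lowest 60%, no trend, array weights, the stages compared alone, the replicate letter as a block, each array left out, and the mean over a gene's probe sets. Leaving out 2 arrays that stood apart (E10.5 C and E11.5 A) and a Gapdh covariate were added after seeing the data. The number of arrays limits the precision.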

Additional observations from a re-analysis of the deposited data

How the results depend on the processing

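Of the 19 tested probe sets, 0, 2 and 4 were called from E10.5 to E11.5, over the last day and over both days, 0 in the contrast of the middle stage and 3 by the F test. Array weights gave 6, 13, 5, 10 and 13, but that fit set a weight of 218 on E11.5 B against 0.163 to 1.20 on the other arrays and did not converge. For the contrast of the middle stage and the F test, 65 and 788 of all probe sets were called as deposited, and at most 12051 and 14230. For E12.5 against E11.5 the count was 1 with the filter of the lowest 60%, 1 without a trend, 1 with the replicate block and 0 with the Gapdh covariate. Calls over all probe sets moved with the setting too, so these counts cannot be read as particular to the genes. Leaving out each array gave 0 throughout, 1 to 3, 2 to 5, 0 to 1 and 1 to 4. Deviations from the stage means had correlations of -0.39 to 0.13 in the 7 pairs of arrays with the same letter. With 2 or 3 arrays a stage such deviations depend on each other. They cannot decide whether a letter marks a shared batch. With the replicate block Etv5 kept its calls, and those of Dusp9 ended for 1454737_at over the last day (-1.74, adjusted p = 0.105) and 1433844_a_at over both days (-1.15, adjusted p = 0.0943). Over all probe sets the counts were 34, 492 and 1255, with ranges over the alternatives of 0 to 5017, 74 to 12520 and 209 to 3371, the highest with array weights.

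Small changes that did not pass turned sign in some fits. Without E10.5 A these were Etv4 (-0.03 from E10.5 to E11.5 and -0.20 to E12.5), Spry1 (-0.47), Spry2 (-0.03) and Spred1 (-0.10), the last 3 from E10.5 to E12.5. Others were Spry2 without E10.5 B (0.08) and Etv5 without E11.5 B (0.02), from E10.5 to E11.5. With a pseudocount of 64, Etv4 came to 0 from E10.5 to E12.5, and it was -0.04 without E12.5 B. With the Gapdh covariate Etv4 was 0.04 from E11.5 to E12.5, and Etv5 and Dusp6 were 0.12 and 0.09 from E10.5 to E11.5. Leaving out each array, these ranges were -0.03 to 0.34 and -0.20 to 0.17 for Etv4 over the first day and both days, -0.47 to 0.48 for Spry1 and -0.10 to 0.19 for Spred1 over both days, -0.57 to 0.08 and -0.03 to 0.62 for Spry2, and -0.38 to 0.02 for Etv5 over the first day. The cause was not tested. With 2 or 3 arrays a stage and no detection calls, dim probe sets such as those of Spry4 are limited by signal over background.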
